A study of Mus musculus with 8 samples.

Results

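The 10 genes described here are Nfe2l2, which encodes the transcription factor Nrf2, Keap1, which encodes its repressor, and 8 antioxidant genes known as Nrf2 targets: Nqo1, Hmox1, Gclc, Gclm, Txnrd1, Srxn1, Slc7a11 and Gsr. They were chosen by name as known members of the pathway, with earlier results of these data in view, and matched to Ensembl genes. All 10 were found among the 52636 genes of the count files. Lung RNA was sequenced in 8 libraries from male C57BL/6 mice, 2 in each of 4 groups. PBS-treated mice received phosphate-buffered saline (PBS) into the trachea at every step, with either the control diet or TJ-41 as feed. For the COPD mice model, porcine pancreatic elastase (PPE) was given at 10 weeks of age and lipopolysaccharide (LPS) from 12 weeks, at 100 µg per dose, again on either diet. TJ-41 (hochuekkito) is a herbal medicine of the Kampo tradition, and it made up 2% of the diet from 8 weeks of age. PPE digests elastin and leaves enlarged airspaces, and LPS is a bacterial wall component that inflames the lung. The day and hour of RNA collection and the number of mice behind each library are not given in the sources used here, and the labels do not say that the 2 replicates of a group came from separate animals. The p-values therefore measure only the spread between these libraries, which may be technical.

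Nrf2 is a transcription factor that is made continuously and destroyed almost as fast. Keap1 holds it in the cytoplasm and presents it to the Cul3 ubiquitin ligase, and oxidants or electrophiles that modify cysteines of Keap1 let Nrf2 escape, enter the nucleus and pair with small Maf proteins on antioxidant response elements. Its targets make and recycle glutathione and thioredoxin, reduce quinones and break down heme, and mice without Nrf2 are known to be more prone to emphysema after elastase or cigarette smoke. Because the control of Nrf2 lies mainly in its protein, the level of Nfe2l2 mRNA does not show the activity of the factor.

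The core of the antioxidant response element was searched as TGACNNNGC on both strands, in windows that reach from 250 bases before to 50 bases after each start site in RefSeq annotation of GRCm38.p6. Windows were present for 7 of the 10 genes, 9 windows in all. The core was found in 4 of the 9 windows, 1 each for 4 genes, and in 12.4% of all 32851 windows of this length. The 4 matches follow, 5′ to 3′, because they are the only places where these promoter windows carry the core. The capitals mark the core and the lower case letters the 10 bases on either side.

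Nfe2l2, chr2:75704885-75704913, minus strand, the strand of the gene: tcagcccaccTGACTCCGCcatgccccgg

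Gclm, chr3:122245413-122245441, minus strand, opposite to the gene: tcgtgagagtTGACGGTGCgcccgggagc

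Txnrd1, chr10:82859104-82859132, minus strand, opposite to the gene: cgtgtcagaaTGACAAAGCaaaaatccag

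Srxn1, chr2:152105542-152105570, minus strand, opposite to the gene: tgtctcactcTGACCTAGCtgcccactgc

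The core began 240 bases before the start site in Nfe2l2, 134 bases before it in Gclm and 92 bases before it in Txnrd1. In Srxn1 it lay 28 bases after the start site. The match of Txnrd1 alone had an A or G just before the core, a form found in 6.31% of all windows. The sequence TGACTCAGC, which also holds the AP-1 site TGACTCA, was in none of the 9 windows and in 0.454% of all windows. The windows of Keap1, Nqo1 and Slc7a11 did not hold the core, which says only that these letters are not within these 300 bases.

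The libraries held 18767295 to 20888042 counts, and levels are given as CPM, counts scaled to a common library size after adjustment by the trimmed mean of M values (TMM). In these units 3 counts correspond to 0.153 to 0.162 CPM, and the lowest count of any of the 10 genes was 67, for Slc7a11. The second library of the COPD mice model given the control diet stood apart from its partner: the replicate difference in log2 CPM had an SD of 0.798 over all genes tested in that group and of 0.394 to 0.469 in the other 3 groups. That library had the highest CPM of 8 of the 10 genes, and the 2 libraries of PBS-treated mice on TJ-41 together had the lowest of 8. Markers of lung cell types were present in all 8 libraries, such as Sftpc of alveolar type II cells, Ager of type I cells and Pecam1 of endothelium. In the second library of the model on the control diet the alveolar type II list summed to 39834 CPM, against 19452 to 29589 elsewhere. The club and airway secretory list summed to 34704 CPM there, against 15432 to 25262. Most marker lists had their highest sum in that library, but those of ciliated, endothelial, and B and plasma cells did not. The part of these cell types in the values of the 10 genes was not tested. Within the marker lists, Ngp of the neutrophil list was at 0 counts in 1 library and Ucp1 of the adipocyte list in 4 libraries.

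Per kilobase of exon, Gclc and Nfe2l2 were the most abundant of the 10 genes, at 73.6 ± 4.57 and 67.4 ± 6.01 CPM per kb (mean ± SD, n = 8). They lay at the 96.4th and 96th percentile of the genes tested, and their ranges over the libraries overlapped. Gsr (24.1 ± 2.69) and Hmox1 (23.4 ± 12.2) followed, then Srxn1 (15.2 ± 3.72) and Txnrd1 (15.1 ± 1.58), and the members of each of these pairs overlapped too. Gclm, Keap1 and Nqo1 were at 7.99 ± 1.02, 7.95 ± 1.29 and 6.43 ± 3.23 CPM per kb, again with overlapping ranges. Slc7a11 was the least abundant at 0.391 ± 0.116 CPM per kb, and its highest library, at 0.604, was below every library of the other 9 genes. Its summed exon length of 13922 bases was the longest of the 10, and in CPM its libraries overlapped those of Nqo1. The coefficient of variation was 6.22% for Gclc and 8.92% for Nfe2l2, but 50.3% for Nqo1 and 52.2% for Hmox1.

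**Figure D1:**
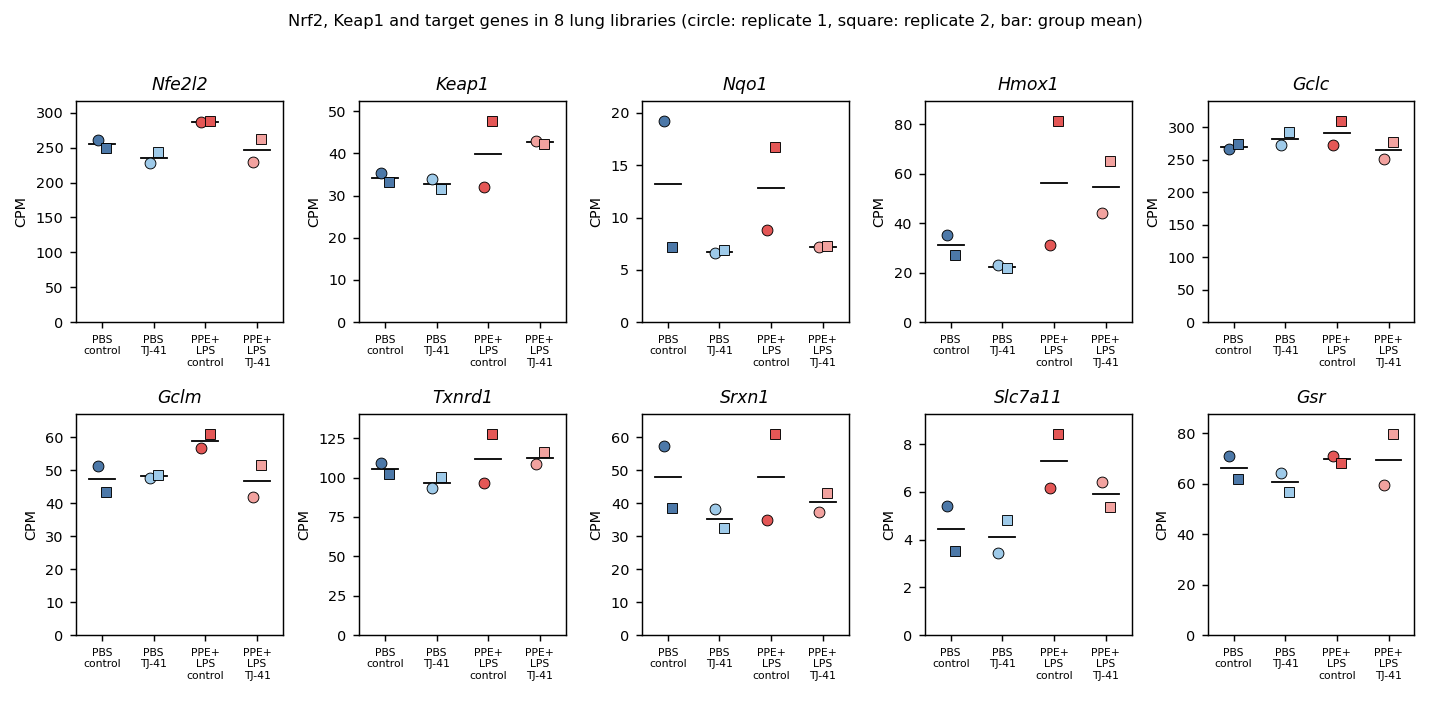
CPM of the 10 genes by group, with circles for replicate 1, squares for replicate 2 and bars for the group means (n = 2), each y axis starting at 0. Nfe2l2 and Gclc lie close together in all 8 libraries, while Hmox1 ranges from 21.9 to 81.1 CPM and Nqo1 from 6.61 to 19.2 CPM.

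Genes were compared with edgeR's quasi-likelihood test on the counts of all 8 libraries, with Benjamini-Hochberg adjustment over 20546 genes. To be called, a gene needed an adjusted p under 0.05 and a log2 difference above 1 in size. All 10 genes passed the filter on low counts, none of them through 1 group alone. None was called in any of the 7 comparisons. The shares of all genes tested that were called were 0.122% for the COPD mice model against PBS-treated mice on the control diet, 0.0779% for the same on TJ-41, 0% for TJ-41 against the control diet in PBS-treated mice and 0.00487% for it in the COPD mice model. Averaged over both diets, 0.443% of genes were called for the model, and averaged over both models 0% for the diet. The difference between the diet effects of the 2 models gave 0%. At an unadjusted p under 0.05 there was 1 of the 10 genes (Hmox1) for the model on the TJ-41 diet, 2 (Hmox1 and Slc7a11) for the averaged model effect and 1 (Nqo1) for the averaged diet effect, and 0 in the other 4 comparisons. Of all genes tested, 6.56%, 10.4% and 2.48% had such a p in these 3 comparisons, so the counts of 1 or 2 genes were within 1 gene of the background. DESeq2 called Hmox1 for the averaged model effect and none of the 10 elsewhere. For that effect it called 245 of all genes, against 91 by the quasi-likelihood test. The exact test of edgeR, run on the 4 comparisons of 2 groups, called none of the 10.

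For the averaged model effect, all 10 log2 fold changes were above 0, with Gclc below 0 when libraries were scaled by their totals alone. Their median was 0.14, against -0.0017 over all genes tested. The 10 fold changes ran from 0.01 for Gclc to 1.06 for Hmox1. For the averaged diet effect, 9 of the 10 were below 0, with a median of -0.16 against -0.0011 over all genes, and Keap1 was the exception at 0.02. Without the second library of the COPD mice model given the control diet, 7 of 10 were above 0 for the model and 6 of 10 below 0 for the diet. The averaged comparisons share all 8 libraries, so they are not separate sets of evidence.

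**Figure D2:**
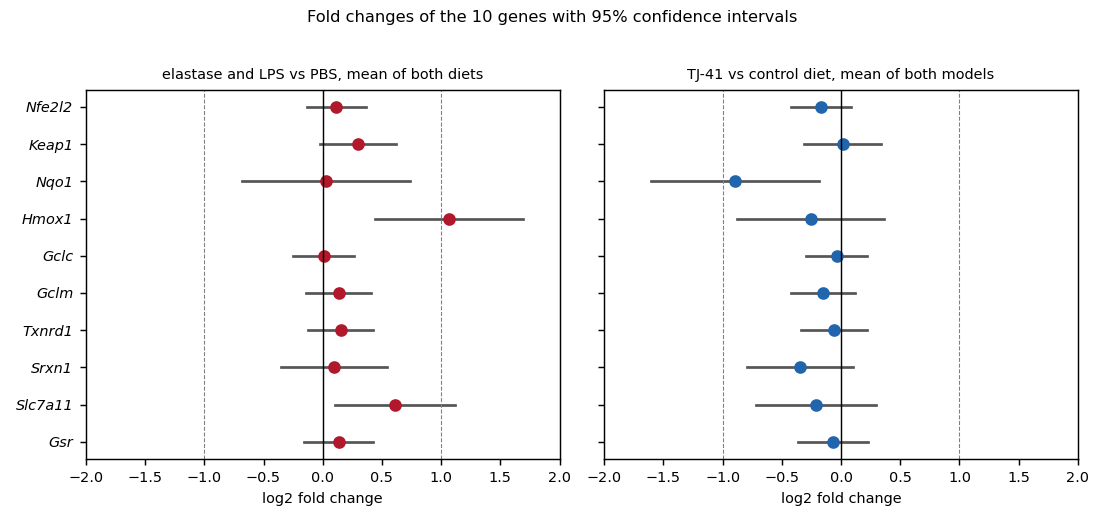
Log2 fold changes of the 10 genes with 95% confidence intervals, for the COPD mice model against PBS-treated mice (left, mean of both diets) and for TJ-41 against the control diet (right, mean of both models). Dashed lines mark 1 and -1. The intervals of Hmox1 and Slc7a11 on the left and of Nqo1 on the right exclude 0, and none of the 3 genes passed the adjusted threshold.

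Nfe2l2 (ENSMUSG00000015839, chr2:75675513-75704641 of GRCm38) was at 261 and 249 CPM in PBS-treated mice on the control diet and at 228 and 244 on TJ-41. In the COPD mice model it was at 286 and 288 CPM on the control diet and at 229.8 and 262 on TJ-41. The 2 control diet libraries of the model were the highest of the 8, and the groups on TJ-41 overlapped. The averaged model effect was 0.12 on the log2 scale (95% interval -0.14 to 0.37, adjusted p = 0.717 by edgeR's quasi-likelihood test), and the averaged diet effect was -0.17 (-0.42 to 0.09, adjusted p = 0.973). These intervals cover fold changes from 0.91 to 1.29 for the model and from 0.748 to 1.06 for the diet.

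Keap1 (ENSMUSG00000003308, chr9:21229730-21239361) was at 35.3 and 33.2 CPM in PBS-treated mice on the control diet and at 33.9 and 31.5 on TJ-41. In the model it was at 31.9 and 47.6 CPM on the control diet and at 42.9 and 42.2 on TJ-41. Of the 4 libraries of the model, 3 lay above all PBS libraries, and the first library of the control diet lay among them. The model effect was 0.21 on the control diet and 0.38 on TJ-41, and 0.30 averaged (-0.03 to 0.62, adjusted p = 0.519 by the same test). Without the second library of the model on the control diet, the control diet value was -0.10 and the average 0.15. Keap1 shares 7.78% of its 50-base stretches with Gm16754, an antisense gene that overlaps 510 of its exonic bases, and the strand setting of the counting is not given in the sources used here, so reads of the 2 genes could not be told apart.

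Among the genes of glutathione synthesis, Gclc (ENSMUSG00000032350, chr9:77754535-77794485), the catalytic subunit of the rate-limiting enzyme, was the steadiest. It was at 266 and 274 CPM in PBS-treated mice on the control diet, at 272 and 293 on TJ-41, at 273 and 309 in the model on the control diet, and at 252 and 277 in the model on TJ-41. The averaged effects were 0.01 for the model (-0.25 to 0.26) and -0.04 for the diet (-0.29 to 0.22), with adjusted p = 0.985 and 0.981 by edgeR's quasi-likelihood test. Gclm (ENSMUSG00000028124, chr3:122245557-122270732), the modifier subunit of the same enzyme, was at 51.3 and 43.4 CPM in PBS-treated mice on the control diet and at 47.7 and 48.7 on TJ-41. In the model it was at 56.8 and 61.0 CPM on the control diet and at 41.8 and 51.7 on TJ-41. On the control diet the model lay above the PBS libraries (log2 fold change 0.32, -0.07 to 0.70, adjusted p = 0.749), and within the model TJ-41 lay below the control diet (-0.33, -0.72 to 0.05, adjusted p = 0.991). The difference between the 2 diet effects was -0.36 (-0.91 to 0.19, adjusted p = 0.999). The exons of Gclm overlap those of Gm17494 on the opposite strand and of Gm6061 on the same strand, and 4.58% of its 50-base stretches occur in other genes.

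Slc7a11 (ENSMUSG00000027737, chr3:49892526-50443614) encodes xCT, the cystine carrier that supplies cysteine for glutathione. It was at 5.39 and 3.53 CPM in PBS-treated mice on the control diet and at 3.43 and 4.81 on TJ-41. In the model it was at 6.15 and 8.41 CPM on the control diet and at 6.42 and 5.37 on TJ-41. On each diet both libraries of the model lay above both PBS libraries, but across diets the ranges met, at 5.39 and 5.37 CPM. The model effect was 0.71 on the control diet and 0.52 on TJ-41, and the average was 0.61 (0.10 to 1.12, adjusted p = 0.384 by edgeR's quasi-likelihood test), a fold of 1.53 (1.07 to 2.17). Leaving out 1 library at a time gave averages of 0.48 to 0.78. Of the 50-base stretches of Slc7a11, 1.47% occur in other genes.

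Gsr (ENSMUSG00000031584, chr8:33652523-33698163), glutathione reductase, returns oxidised glutathione to its reduced form. It was at 70.9 and 61.8 CPM in PBS-treated mice on the control diet, at 64.3 and 56.7 on TJ-41, at 71.1 and 68.2 in the model on the control diet, and at 59.5 and 79.5 in the model on TJ-41. The groups overlapped in all comparisons. The averaged effects were 0.14 for the model (-0.16 to 0.43) and -0.07 for the diet (-0.36 to 0.22), with adjusted p = 0.715 and 0.973 by the same test.

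Txnrd1 (ENSMUSG00000020250, chr10:82833951-82897712) encodes cytosolic thioredoxin reductase. It was at 109 and 102 CPM in PBS-treated mice on the control diet and at 93.5 and 100.3 on TJ-41. In the model it was at 96.4 and 128 CPM on the control diet and at 109 and 116 on TJ-41. On TJ-41 the model lay above PBS-treated mice, by 0.22 on the log2 scale (-0.18 to 0.61, adjusted p = 0.785), while on the control diet the groups overlapped (0.08, -0.31 to 0.48, adjusted p = 0.962). Srxn1 (ENSMUSG00000032802, chr2:152105516-152111376) encodes sulfiredoxin, which repairs peroxiredoxins that have been over-oxidised. It was at 57.2 and 38.6 CPM in PBS-treated mice on the control diet, at 38.1 and 32.5 on TJ-41, at 35.0 and 60.9 in the model on the control diet, and at 37.4 and 43.1 in the model on TJ-41. The 2 high libraries were 1 of each model, both on the control diet, and the other 6 lay between 32.5 and 43.1 CPM. The averaged diet effect was -0.35 (-0.79 to 0.10, adjusted p = 0.973 by edgeR's quasi-likelihood test), -0.19 without the high PBS library and -0.12 without that of the model.

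Nqo1 (ENSMUSG00000003849, chr8:107388225-107403206) encodes the quinone reductase that is widely used as a readout of Nrf2. It was at 19.2 and 7.17 CPM in PBS-treated mice on the control diet and at 6.61 and 6.87 on TJ-41. In the model it was at 8.81 and 16.8 CPM on the control diet and at 7.20 and 7.26 on TJ-41. The 4 libraries on TJ-41 lay within 6.61 to 7.26 CPM, and the 4 on the control diet spread from 7.17 to 19.2, with 1 high library in each model. The groups on the 2 diets overlapped by a narrow margin, since the lowest control diet library was below the highest TJ-41 libraries.

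The diet effect on Nqo1 was -0.97 in PBS-treated mice (-1.98 to 0.04, adjusted p = 0.996 by edgeR's quasi-likelihood test) and -0.82 in the model (-1.83 to 0.18, adjusted p = 0.991). Averaged, it was -0.90 (-1.61 to -0.18, adjusted p = 0.973), a fold of 0.538. The model effect on Nqo1 was 0.03 (-0.68 to 0.74, adjusted p = 0.976). The diet effect in PBS-treated mice and that in the model each rested largely on 1 high library, and the average drew on both. Without the high library of the PBS-treated mice the diet effect was -0.091 in PBS-treated mice and -0.46 averaged. Without that of the model it was -0.29 in the model and -0.63 averaged. The averaged model effect was 0.47 without the high PBS library and -0.23 without that of the model. Without the first library of the model on the control diet, which leaves 1 library in that group, the averaged diet effect was -1.10.

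Red cell transcripts were high in the same 2 libraries as Nqo1 and Srxn1. The summed CPM of 7 red cell genes was 2738 in the first PBS library on the control diet and 3758 in the second library of the model on the control diet, 875 and 1943 in their partners, and 990 to 1310 in the 4 libraries on TJ-41. All 7 had averaged diet effects below 0, 5 of them at an unadjusted p under 0.05 and 0 called. All 11 genes of heart and pulmonary vein muscle had averaged diet effects below 0, 8 at an unadjusted p under 0.05 and 0 called. These muscle genes did not follow the same 2 libraries: they summed to 516 and 566 CPM in PBS-treated mice on the control diet, 632 and 418 on TJ-41, 629 and 814 in the model on the control diet, and 375 and 305 in the model on TJ-41. For the diet, 0 of the 11 had an unadjusted p under 0.05 in PBS-treated mice and 11 in the model. The 10 club and airway secretory genes also had their highest sums in the same 2 libraries as Nqo1 and Srxn1, at 25262 and 34704 CPM. The others were at 15432 to 23888 CPM. The mean log2 CPM of this list was, though, lowest in the PBS library of these 2, at 6.91. For the averaged diet effect 3 of its genes were above 0 and 7 below. None of these genes was at 0 in any library, and their part in the values of Nqo1 and Srxn1 was not tested. Fewer cells of a type and less RNA per cell cannot be told apart in whole lung RNA.

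Hmox1 (ENSMUSG00000005413, chr8:75093621-75100589) encodes heme oxygenase 1, which opens the heme ring and releases iron, carbon monoxide and biliverdin, and it had the highest averaged model effect of the 10 genes. It was at 35.2 and 27.2 CPM in PBS-treated mice on the control diet and at 22.9 and 21.9 on TJ-41. In the model it was at 31.0 and 81.1 CPM on the control diet and at 43.9 and 65.1 on TJ-41. On TJ-41 both libraries of the model lay above both PBS libraries. On the control diet the first library of the model lay between the 2 PBS libraries and the second was the highest of the 8.

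The model effect on Hmox1 was 1.28 on TJ-41 (0.39 to 2.17, adjusted p = 0.577 by edgeR's quasi-likelihood test) and 0.85 on the control diet (-0.03 to 1.72, adjusted p = 0.667). The average was 1.06 (0.44 to 1.69, adjusted p = 0.183), a fold of 2.09 (1.36 to 3.22). Hmox1 was called for the averaged effect by DESeq2 (adjusted p = 0.00388) and by edgeR without the filter on low counts (adjusted p = 0.0212). These fits called 245 and 278 of all genes. Without the first library of the model on the control diet, which leaves 1 library in that group, the averaged effect was 1.33. Without the second library of that group it was 0.64. On the control diet alone the model effect was 1.37 without the first and -0.01 without the second. For the model on TJ-41, Hmox1 was called when only those 2 groups were fitted (adjusted p = 0.00912), as were 248 of all genes. The diet effect on Hmox1 was -0.48 in PBS-treated mice, where the groups did not overlap (adjusted p = 0.996), and -0.04 in the model (adjusted p = 0.999). The difference between these effects was 0.44 (-0.80 to 1.67, adjusted p = 0.999).

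Macrophage markers varied between the libraries as well. The macrophage list of 18 genes summed to 7391 to 10784 CPM in PBS-treated mice and to 10416 to 13183 in the model, with 10 genes higher and 8 lower in the averaged comparison, 5 and 3 of them at an unadjusted p under 0.05 and 0 called. Marco, a scavenger receptor of macrophages that was picked from this list after its values were seen, was at 17.5, 19.8 and 14.9 CPM in the first PBS library on the control diet, the second library of the model on the control diet and the second library of the model on TJ-41, and at 2.49 to 5.11 CPM in the other 5. The first library of the model on TJ-41 was above all 4 PBS libraries for Hmox1 but had Marco at 5.11 CPM. Adgre1, the F4/80 antigen of macrophages, was at 18.0 CPM in the second library of the model on the control diet and at 34.5 to 45.6 CPM in the other 7, and the mean log2 CPM of the list there, at 5.77, was the second lowest of the 8 libraries. Of 10 genes of B and plasma cells, 2 were called higher in the model, and the list summed to 1013 to 1573 CPM in the PBS libraries and to 2319 to 4306 in the model. The part of these cells in the values of Hmox1 was not tested.

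A list of 17 circadian clock genes, written to follow the hour of sampling, separated the model from PBS-treated mice. Its summed CPM was 775 to 1029 in the PBS libraries and 2015 to 2109 in the libraries of the model, and 9 genes were called higher and 3 lower in the averaged comparison. Dbp, a clock output factor, was at 8.76 to 21.3 CPM in the PBS libraries and at 185 to 200.3 CPM in the model, and Arntl, a core clock activator, at 36.8 to 54.7 and at 2.87 to 7.67 CPM. The hour of sampling and the model cannot be told apart in this design, and this holds for every value given for the model.

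**Figure D3:**
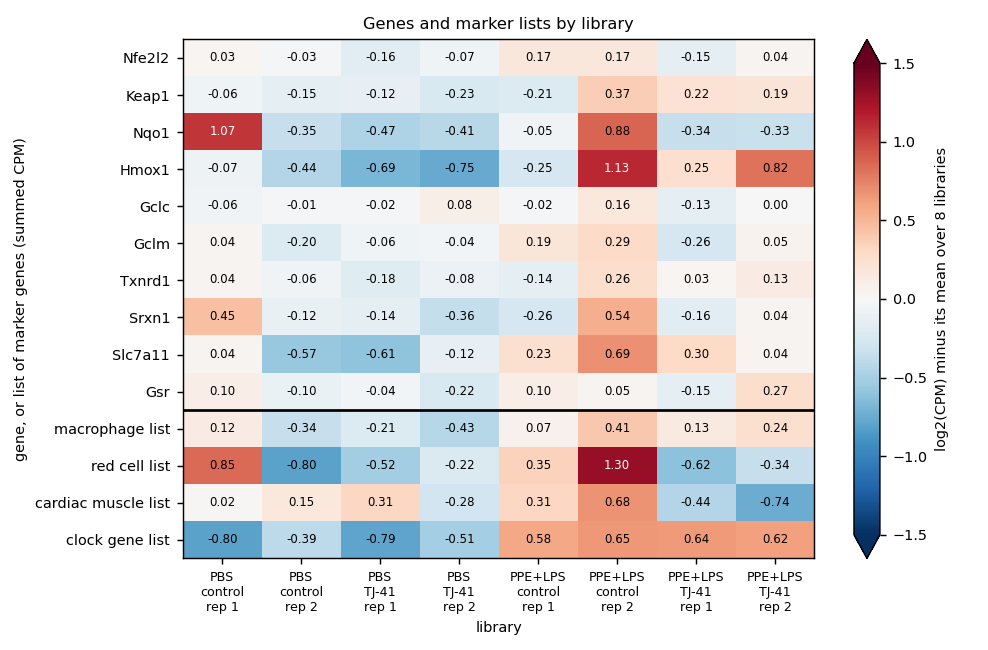
The log2 CPM of each of the 10 genes, and of the summed CPM of 4 marker lists under the black line, minus its mean over the 8 libraries (colour scale from -1.5 to 1.5). The second library of the COPD mice model given the control diet is above the mean for all 10 genes and for all 4 lists shown, and Nqo1, Srxn1 and the red cell list share their 2 highest libraries. The 4 lists are part of a larger set of marker lists.

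Libraries of the compared groups did not overlap for 3 of the 10 genes for the model on the control diet, against 27.6% of all genes tested, and for 5 on TJ-41, against 56.5%. They did not overlap for 5 of 10 for the diet in PBS-treated mice, against 38.2%, and for 3 in the model, against 29%. With 4 libraries on each side, 0 of the 10 genes were separated for the model, against 6.78% of all genes, and 0 for the diet, against 1.38%. These shares lay on both sides of the background and within 2 genes of it.

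Across the 8 libraries the 10 genes varied in the same direction more often than not. All 45 pairs had a Pearson r of log2 CPM above 0, with a median of 0.523. The highest r was that of Hmox1 and Txnrd1, at 0.928 (Spearman's rho 0.857), and the lowest that of Gclc and Gsr, at 0.0448 (rho 0.0476). Nfe2l2 and Keap1 had an r of 0.207, and Nqo1 and Srxn1 an r of 0.894. For deviations from the group means, r was below 0 for Slc7a11 and Gsr (-0.219), Nfe2l2 and Keap1 (-0.0345) and Keap1 and Gsr (-0.0255). It was above 0 for the other pairs. Spearman's rho was below 0 for Keap1 and Gclc, at -0.0714. The 8 points come from 4 groups and share the library that stood apart, so these values are descriptions. Among the other genes tested, those most like Nfe2l2 over the 8 libraries were Gm14126 (r = 0.941), Sap30 (0.936) and A930003A15Rik (0.928). Among those most like Keap1 were Grina (0.992) and Mfsd12 (0.99). When the 2 libraries farthest from the median of Nfe2l2 or Keap1 were left out, r was 0.835 to 0.905 for the first 3 and 0.98 to 0.983 for the others.

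The wider pathway was described with 103 genes in 7 lists by role, of which 102 were tested. None was called in any of the 7 comparisons by edgeR's quasi-likelihood test, against the shares of all genes given above. DESeq2 called none of them either, and it called 5 to 245 of all genes in these comparisons. For the averaged model effect, 75 of the 102 were above 0 and 27 below, with a median log2 fold change of 0.16, and 10 were higher and 2 lower at an unadjusted p under 0.05, near the 10.4% of all genes with such a p. For the averaged diet effect, 22 were above 0 and 80 below, with a median of -0.16, and 0 were higher and 4 lower at that p, against 2.48% of all genes. For the model on TJ-41, 77 of the 102 were above 0 (median 0.16), and for the diet in PBS-treated mice 81 were below 0 (median -0.22). Neither of these comparisons includes the model on the control diet. The averaged patterns were not seen without the second library of the model on the control diet. Without it, 52 genes were above 0 and 50 below in each comparison, with medians of 0.0037 for the model and 0.0073 for the diet. Without the first library of that group, which leaves the second alone and takes it to vary like the other groups, 13 were called for the model on the control diet, 11 for the diet in the model, 3 for the averaged model effect and 2 for the averaged diet effect. In the same fits 1343, 728, 873 and 228 of all genes were called.

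By role, for the averaged model effect, 15 of 17 genes of the thioredoxin and peroxiredoxin list were above 0 (median 0.30), 7 of 8 of the NADPH supply list (0.24), 22 of 29 of the glutathione list (0.15), 9 of 12 of the heme and iron list (0.15) and 4 of 4 for superoxide and peroxide removal (0.27). The list of quinone, aldehyde and carbonyl detoxification had 11 of 18 (0.09), and the list of Nrf2 partners and turnover factors had 7 of 14 (0.01). Without the second library of the model given the control diet, the counts above 0 were 13 of 17, 6 of 8, 11 of 29, 7 of 12, 3 of 4, 8 of 18 and 4 of 14 in the same order, and the medians of the glutathione, quinone and partner lists were below 0, at -0.09, -0.016 and -0.07. For the averaged diet effect, 25 of 29 genes of the glutathione list were below 0, with a median of -0.32. Without that library 13 of the 29 were below 0, with a median of 0.02. In PBS-treated mice alone the diet effect was below 0 for 26 of the 29 (-0.28). Of the quinone list 17 of 18 were below 0 on average (-0.17), and 12 of 18 without that library (-0.07). The thioredoxin, NADPH, heme and superoxide lists had 13 of 17, 7 of 8, 8 of 12 and 4 of 4 below 0. Without that library they had 9 of 17, 3 of 8, 6 of 12 and 2 of 4. The partners and turnover factors of Nrf2 were again split, with 6 of 14 below 0.

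**Figure D4:**
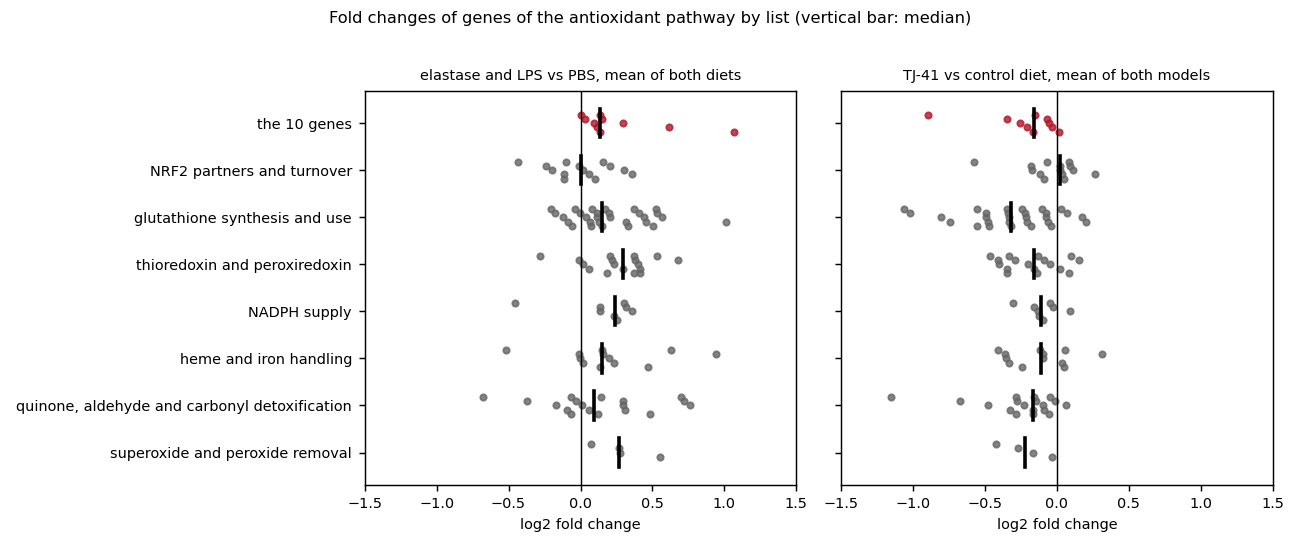
Log2 fold changes of the 10 genes (red) and of the 102 other pathway genes (grey) in 7 lists, for the model (left, mean of both diets) and for TJ-41 (right, mean of both models), with a vertical bar at each median. Most genes lie above 0 on the left and below 0 on the right, and the medians of the Nrf2 partners lie near 0 in both.

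Of the 102 other pathway genes, 4 had no overlap between the 4 libraries on each side for the averaged model effect, against 6.78% of all genes, and 1 for the averaged diet effect, against 1.38%. Ephx1, microsomal epoxide hydrolase, was at 176, 163, 162 and 154 CPM in the PBS libraries and at 229, 327, 249 and 272 CPM in the model, a log2 fold change of 0.72 (0.40 to 1.03, adjusted p = 0.0729 by edgeR's quasi-likelihood test). Cbr2, a carbonyl reductase of the lung, was at 1440 to 1793 CPM in the PBS libraries and at 2142 to 3731 CPM in the model (0.70, 0.28 to 1.12, adjusted p = 0.188). Prdx4, a peroxiredoxin of the endoplasmic reticulum, was at 30.5 to 40.2 and 44.2 to 47.5 CPM (0.42, 0.16 to 0.67, adjusted p = 0.199). Bach2, a transcriptional repressor of the same protein family as Nrf2, was the only 1 of the 4 below 0 for the model and is named after its values were seen (-0.43, -0.82 to -0.05, adjusted p = 0.417). The gene without overlap for the averaged diet effect was Gsta2, a glutathione S-transferase. It was at 4.81, 3.06, 2.92 and 7.13 CPM on the control diet and at 2.15, 2.54, 1.77 and 2.30 CPM on TJ-41 (-1.02, -1.73 to -0.31, adjusted p = 0.973). Of these 5 genes, 0 were called.

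**Figure D5:**
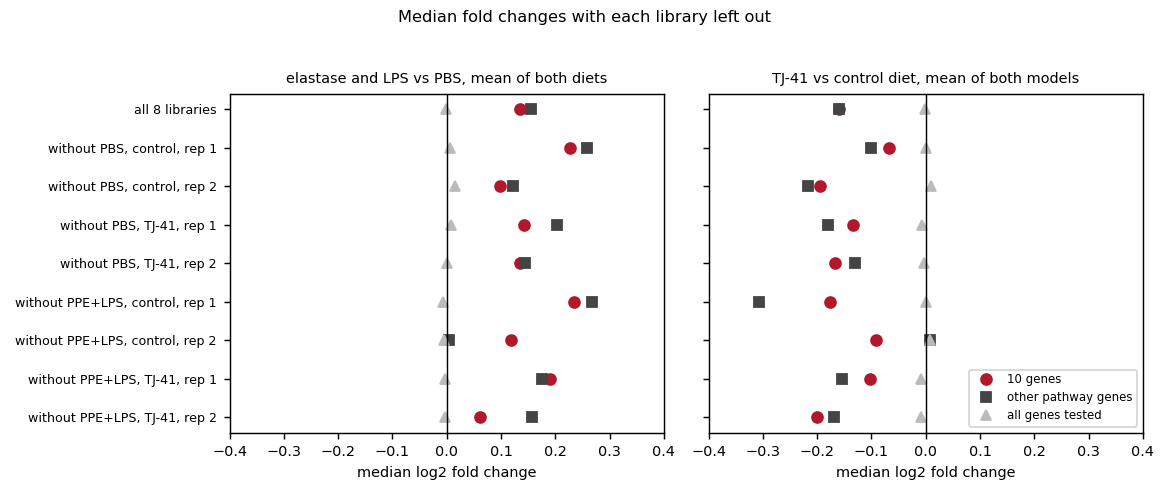
Median log2 fold changes of the 10 genes (red circles), of the 102 other pathway genes (squares) and of all genes tested (triangles), for all 8 libraries and with each library left out in turn. With the second control diet library of the model left out, the other pathway genes have medians of 0.0037 for the model and 0.0073 for the diet, while those of the 10 genes are 0.12 and -0.09.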

How the data were processed

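Lung RNA sequencing was analysed from 8 count tables, 1 per library. The values the authors deposited are raw counts of reads for each Ensembl gene, not normalized, after alignment to mm10 (GRCm38). The submitters' processing notes name HISAT2 and edgeR, and the methods of the study name CLC Genomics Workbench and edgeR. How reads were assigned to genes, including strand and reads with several matches, and with which annotation is not given in the sources used here. Groups and replicate numbers came from the labels, which write the diet as TJ41 and as TJ4, both read as TJ-41.

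Of 52636 gene identifiers, 52403 were named from GENCODE M21. Counts were tested with edgeR 4.0.16 in R 4.3.3 (filterByExpr set to 10 counts at least and 15 in total, TMM factors, group means, 4 residual degrees of freedom), and the SE of a log2 fold change was taken from the F statistic. Library totals ran from 18767295 to 20888042. Libraries of a group differed by 12 to 88.6 times the variance of counting, so none was a copy. The 10 genes, the lists of pathway and marker genes and the tests were chosen with earlier results of these data known. All 10 genes are named in every comparison. Other pathway genes are named if called, or, for the averaged effects, if among the 3 smallest p-values without overlap. Genes most like Nfe2l2 and Keap1 are the 3 with the highest r, of which 1 is not reported here. Alternatives were DESeq2 1.42.0, edgeR's exact test, other factors, all genes with a count, only the groups compared, a replicate block, no fold threshold and each library left out. The steps were tested on simulated data. Per-kilobase levels use the summed exon length of GENCODE M21.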

Additional observations from a re-analysis of the deposited data

How the results depend on the processing

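With 2 libraries in a group, the results depended on single libraries. Another test or choice of groups moved the count of all genes further in some comparisons. These were the model on TJ-41, the diet in PBS-treated mice and the difference between diet effects. Over 8 fits that each left out 1 library, the number of the 10 genes called ran from 0 to 1 for the model on the control diet, for the model on TJ-41, for the averaged model effect and for the averaged diet effect, and it was 0 in the other 3 comparisons. The median of the 10 genes for the model on the control diet ran from 0.0062 to 0.34 on the log2 scale. The number was 1 for the averaged model effect with all genes that had at least 1 count and with DESeq2, and 1 for the model on TJ-41 with only the groups compared. The gene was Hmox1 in each case but Nqo1 for the diet. With a replicate block, 0 of the 10 genes were called in any comparison and Hmox1 had an averaged model effect of 0.99 (adjusted p = 0.274). The replicate differences of the groups correlated from -0.234 to 0.108. This gave no sign that the numbers pair the libraries, but it cannot exclude a pairing, since libraries of a group differed widely. The block moved no count of all genes over 1.5 times except the single call for the diet in the model, which became 0. The core of the response element was in 4 windows, in 1 with an A or G before it and in 0 as TGACTCAGC.

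Of the other pathway genes, alternatives chosen after the data were seen called 0 to 13 for the model on the control diet, 0 to 1 for the model on TJ-41, 0 to 11 for the diet in the model, 0 to 3 for the averaged model effect and 0 to 2 for the averaged diet effect with 1 library left out, and 1 (Ftl1) for the model on TJ-41 with only the groups compared. The medians of these genes ran from 0.0037 to 0.27 for the averaged model effect and from -0.31 to 0.0073 for the averaged diet effect, and that of the glutathione list from -0.09 to 0.31 and from -0.49 to 0.02. Counts over all genes also varied, and without 1 library they were highest without the first library of the model on the control diet, or without its partner for the model on TJ-41. For the averaged model effect 91 genes were called, with 15 to 873 when 1 library was left out, 278 with all genes that had a count and 245 with DESeq2. For the model on the control diet 25 were called, with 3 to 1343, 147 and 172, and 210 with the exact test. For the model on TJ-41 16 were called, with 2 to 168, 89, 116 and 137, and 248 with only those groups. For the diet in the model 1 was called, with 0 to 728, 2, 10 and 6. For the diet in PBS-treated mice 0 were called, with 0, 0, 6 and 6, and 5 with only those groups. For the averaged diet effect 0 were called, with 0 to 228, 1 and 5, and for the difference between diet effects 0, with 0 to 14, 6 and 17.

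Of 860 alternative values of single genes, 8 passed the threshold that the reported value did not pass and 55 changed sign, in 24 gene and comparison pairs. The cause was not tested. For the model on the control diet, leaving out 1 library gave -0.10 to 0.47 for Keap1, -0.59 to 0.84 for Nqo1, -0.0065 to 1.37 for Hmox1, -0.13 to 0.27 for Txnrd1, -0.45 to 0.34 for Srxn1 and -0.027 to 0.17 for Gsr. For the model on TJ-41 it gave -0.031 to 0.16 for Nfe2l2, -0.20 to 0.11 for Gclm and -0.016 to 0.40 for Gsr. For the diet in PBS-treated mice it gave -0.093 to 0.15 for Gclm and -0.39 to 0.22 for Slc7a11. For the diet in the model it gave -0.16 to 0.42 for Keap1, -0.57 to 0.82 for Hmox1, -0.18 to 0.22 for Txnrd1, -0.60 to 0.20 for Srxn1 and -0.22 to 0.19 for Gsr. For the averaged model effect it gave -0.24 to 0.47 for Nqo1, -0.032 to 0.051 for Gclc and -0.12 to 0.27 for Srxn1. For the averaged diet effect it gave -0.12 to 0.17 for Keap1, -0.53 to 0.17 for Hmox1, -0.084 to 0.0033 for Gclc, -0.16 to 0.043 for Txnrd1 and -0.18 to 0.026 for Gsr. The other changes of sign were of values near 0. Srxn1 for the model on the control diet was -0.064 with library size alone, -0.0075 with all genes that had a count, -0.0048 with only the groups compared and -0.0099 with the replicate block. For the diet in the model, Hmox1 was 0.033 with library size alone and 0.0096 with the replicate block, and Gsr was 0.040 with library size alone, 0.0044 with all genes that had a count and 0.0057 with only the groups compared. Gclc for the averaged model effect was -0.012 with library size alone.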
